A study of Arabidopsis thaliana with 6 samples.

Results

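The loci followed were 10 members of the ROOT MERISTEM GROWTH FACTOR (RGF) pathway, in salt-treated Arabidopsis thaliana root tips. They were chosen by name, with earlier results of these data known. They are the peptide genes RGF1, RGF2 and RGF3 and the 5 receptor genes known as RGI1 to RGI5. The PLATZ transcription factor RITF1 and the enzyme TPST complete the set. All 10 were present among the 27655 loci of the expression table, with 18 of its 48359 transcripts. The receptors are given here by locus, because the annotation used did not pair the RGI numbers with loci. AT2G12646, which the annotation describes as a PLATZ transcription factor family protein, was taken as RITF1.

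RNA from root tips was sequenced in 3 sos2-2 samples and 3 samples labelled wild type (WT). SOS2 is a protein kinase that activates sodium export from the cell in the Salt Overly Sensitive pathway. Seedlings of both genotypes were grown on agar medium and, at 6 days of age, were kept for 12 hours in liquid medium with 100 mM NaCl. Every sample was therefore on salt, no unsalted sample was analysed here, and the series names gl1 beside sos2-2 without saying which samples carry that allele.

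RGF peptides, also called GOLVEN or CLE-like peptides, are cut from longer precursors and need a sulfate group on a tyrosine, which TPST adds in the Golgi. They are perceived at the cell surface by leucine-rich repeat receptor kinases, the RGIs, which work with SERK co-receptors. In the root tip this signal, relayed partly through a MAP kinase cascade and through RITF1 and reactive oxygen species, maintains the gradient of PLETHORA proteins and with it the size of the meristem.

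The coding stretch of the mature peptide is shown for the 3 RGF genes and for RGF5. Of the family members higher in sos2-2, RGF5 had the largest log2 fold change. Each line holds the 13 codons that begin with the aspartate and tyrosine pair, whose codons are in capitals; the tyrosine is the residue that TPST sulfates. The stretches come from RefSeq's TAIR10.1 genome and annotation, are given 5′ to 3′ on the coding strand and each lie in a single exon. They are at chr5:24466534-24466572 on the minus strand for RGF1, chr1:4669184-4669222 on the plus strand for RGF2, chr2:1276902-1276940 on the minus strand for RGF3 and chr5:20898713-20898751 on the plus strand for RGF5.
RGF1: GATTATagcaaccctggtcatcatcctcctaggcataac
RGF2: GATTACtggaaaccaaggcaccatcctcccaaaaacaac
RGF3: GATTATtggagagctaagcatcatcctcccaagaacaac
RGF5: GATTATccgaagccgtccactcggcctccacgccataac
RGF2 and RGF3 were the closest pair, with 32 of 39 bases identical and 10 of 13 codons of the same meaning. RGF1 shared 26 of 39 bases with RGF2 and 27 with RGF3. RGF5 shared 24 of 39 bases with RGF1, 20 with RGF2 and 20 with RGF3.

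In sos2-2 root tips on salt, transcripts of RGF2 and RGF3 were lower than in WT by more than an order of magnitude, while RGF1 did not pass the test. The 5 receptors all passed the test, but in opposite directions: AT3G24240, AT5G48940 and AT1G34110 were lower and AT5G56040 and AT4G26540 were higher. RITF1 was lower, at 0.507 times the WT mean, and TPST did not pass the test. In all, 6 of the 10 loci were lower, 2 were higher and 2 did not pass; the call of AT4G26540 was lost when any of 5 samples was left out. Calls were frequent across the table as well: of 19527 loci tested, 65.4% passed, 31.3% higher and 34.1% lower in sos2-2. The median log2 fold change of the 10 loci was -0.70, beside -0.05 over all tested loci. The 3 sos2-2 and 3 WT values did not overlap at 9 of the 10 loci, and at 72.1% of all tested loci.

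Levels are in TPM, which counts transcripts relative to all those in a sample, summed over the isoforms of a locus; TPM is scaled by transcript length, so levels of different genes can be set side by side. Log2 fold changes are sos2-2 minus WT on the log2(TPM + 1) scale, which shrinks the change of weakly expressed genes. They come from limma fitted to all tested loci, with Benjamini-Hochberg adjusted p-values called under 0.05, and errors after ± are SDs with n = 3 per genotype. Whether the 3 samples of a genotype were separate cultures is not in the labels. The p-values set the genotype difference against the spread within the groups, and that spread may be only technical. TPM keeps no depth, and the sequencing depth is unknown. In whole root tips, fewer cells of a type and less RNA per cell cannot be told apart.

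**Figure D1:**
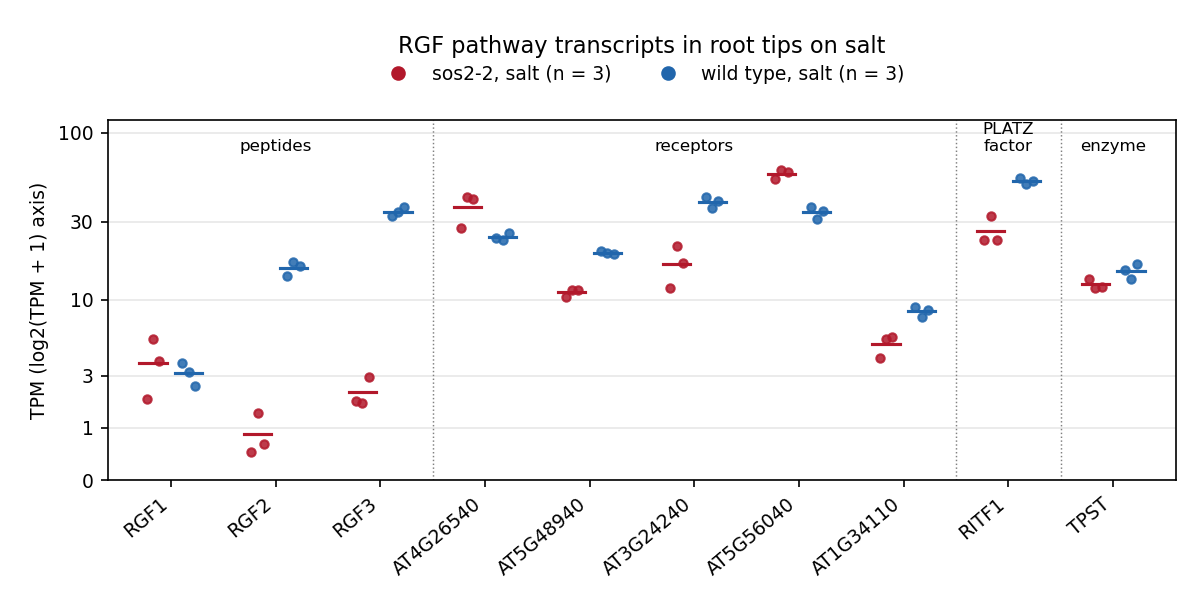
TPM of the 10 loci in each sample, on a log2(TPM + 1) axis, with sos2-2 in red left of WT in blue; each point is a sample and each bar the mean of 3. RGF2 and RGF3 show the widest gaps, with sos2-2 samples at 0.457 to 2.95 TPM and WT samples at 14.0 to 36.6 TPM, and RGF1 is the one locus whose samples overlap.

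The root tip origin was checked against marker genes. Calls were common over all tested loci, at 31.3% higher and 34.1% lower in sos2-2, so the marker counts are description only. WOX5, SCR and SHR, from the list of stem cell niche markers, were detected in both genotypes, and of those 3 none passed the test. MYB56 was the 1 of 5 markers on that list that fell. SOS2 mRNA itself was higher in sos2-2, at 22.0, 10.2 and 14.3 TPM, against 4.98, 5.81 and 5.44 TPM in WT (log2 fold change 1.299, SE 0.25, limma adjusted p = 0.00289). Since the lesion of the allele is not in the labels, this level does not check the genotype. Markers of dividing cells, chiefly mitotic cyclins and kinases, fell at 9 of 9 loci, with summed levels of 30.99 to 57.8 TPM in sos2-2 and 161 to 239.7 TPM in WT, and their part in the results below was not tested. Endodermis markers fell at 4 of 5 loci and rose at MYB36, with sums of 128.5 to 308.2 TPM in sos2-2 and 627 to 796 TPM in WT. Root hair markers fell at 3 of 5 and rose at RHD6 (sums 319.7 to 416.9 TPM in sos2-2, 1321 to 1736 TPM in WT). Of 4 root cap markers, SMB and BRN2 rose and FEZ fell (sums 42.4 to 44.8 TPM in sos2-2, 32.01 to 37.0 TPM in WT). FEZ (0.733 TPM in sos2-2, 3.41 TPM in WT) reached the minimum mean of 1 TPM for the test only through its WT samples. So did CYCB2;1, a marker of dividing cells (0.723 TPM in sos2-2, 4.57 TPM in WT). Leaf photosynthesis markers were low, summing to 7.42 to 20.1 TPM in sos2-2 and 27.4 to 43.2 TPM in WT, and no marker of any list was at 0 in all samples. One locus, AT2G01021, took between 0.191% and 5.55% of all TPM depending on the sample.

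Among the ligands, RGF3 (AT2G04025, chr2:1276683-1277761, minus strand) had the largest difference on the log2(TPM + 1) scale. With 0.1 TPM added in place of 1, the difference of RGF2 was larger (-4.22, against -3.93 for RGF3). RGF3 was measured at 1.87, 1.79 and 2.95 TPM in the sos2-2 samples, against 32.2, 34.3 and 36.6 TPM in the WT samples. All sos2-2 samples were low and the groups did not overlap. The mean was 2.20 ± 0.65 TPM in sos2-2 and 34.3 ± 2.2 TPM in WT, 15.6-fold lower in sos2-2 (log2 fold change -3.48, SE 0.17, limma adjusted p = 7.88e-06). Only 73 of the 19527 tested loci had a log2 fold change at or below this one.

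RGF2 (AT1G13620, chr1:4668366-4669471, plus strand) behaved similarly at a lower level. It was measured at 0.457, 1.42 and 0.616 TPM in the sos2-2 samples, against 14.0, 17.2 and 16.1 TPM in the WT samples. Again every sos2-2 sample lay far below every WT sample. RGF2 reached the minimum mean of 1 TPM for the test only through its WT samples. The mean was 0.832 ± 0.518 TPM in sos2-2 and 15.8 ± 1.6 TPM in WT, 18.9-fold lower in sos2-2 (log2 fold change -3.22, SE 0.22, limma adjusted p = 2.67e-05). Without sos2-2 replicate 2, the highest of its group, the mean of sos2-2 was 0.537 TPM and the fold 29.4. At these levels the log2 fold change also depends on the constant added to TPM, and ran between -4.22 with 0.1 TPM and -1.83 with 5 TPM for RGF2, with the call kept. Of the 766 distinct stretches of 31 bases in RGF2, 17 (2.22%) also occur, read on either strand, in the locus AT1G13630.

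RGF1 (AT5G60810, chr5:24466509-24467215, minus strand) was the least abundant of the 3 in WT. It was measured at 1.91, 5.50 and 3.85 TPM in the sos2-2 samples, against 3.72, 3.20 and 2.501 TPM in the WT samples. The sos2-2 samples spread on both sides of the WT samples, so the groups overlapped. The mean was 3.76 ± 1.79 TPM in sos2-2 and 3.14 ± 0.61 TPM in WT (log2 fold change 0.14, SE 0.30, limma adjusted p = 0.705). This difference is smaller than the spread between replicates, and its sign turned without sos2-2 replicate 2 (-0.13).

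The make-up of the ligand transcripts is described by shares, with no test. The shares did not overlap between the genotypes, nor did the TPM of RGF2 and RGF3, as at 72.1% of all tested loci. A share depends on the other genes in the sum, and the TPM of RGF1 itself overlapped. Of the summed TPM of RGF1, RGF2 and RGF3, RGF1 held 53.4% ± 9.07 in sos2-2 and 5.94% ± 1.46 in WT. RGF3 held 34.8% ± 12.5 in sos2-2 and 64.5% ± 1.74 in WT. The sum of the 3 was 4.25 to 8.71 TPM over the sos2-2 samples, against 49.9 to 55.2 TPM over the WT samples.

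Single isoforms were also tested for the 2 lower ligand genes. The first isoform of RGF3 carried at least 87.6% of its level in every sample and was lower in sos2-2 (log2 fold change -3.37, limma adjusted p over transcripts = 3.5e-05); of 27461 transcripts tested, 50.8% passed. The second isoform of RGF3 was listed at 0 in each sos2-2 sample and at 3.99, 2.04 and 1.32 TPM in WT (adjusted p = 0.00582, limma). It reached the minimum mean of 1 TPM for the test only through its WT samples, so its p-value adds no support to the locus result. The first isoform of RGF2 was listed at 0, 0.815 and 0.581 TPM in sos2-2, against 13.2, 16.4 and 14.0 TPM in WT (log2 fold change -3.45, limma adjusted p = 0.000104). This isoform, too, reached the minimum mean only through its WT samples. The second isoform of RGF2 averaged 0.367 ± 0.297 TPM in sos2-2 and 1.205 ± 0.783 TPM in WT, and was below the minimum mean of 1 TPM for the test.

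**Figure D2:**
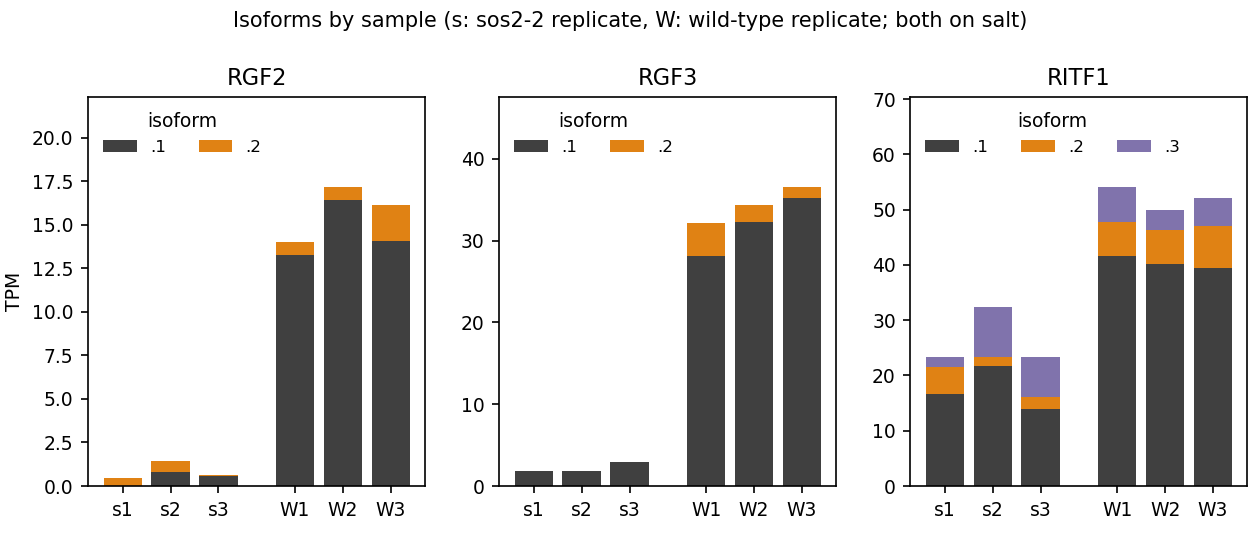
TPM of each isoform, stacked, in RGF2, RGF3 and RITF1; s1 to s3 are the sos2-2 samples and W1 to W3 the WT samples. The first isoform makes up most of each WT bar, and in RITF1 the third isoform (top of the bar) is present at 1.89 to 9.03 TPM in sos2-2 and 3.53 to 6.43 TPM in WT.

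Because RGF2 and RGF3 were lower together, the 250 bases before their annotated starts are shown. They are chr1:4668116-4668365 on the plus strand for RGF2 and chr2:1277762-1278011 on the minus strand for RGF3, from RefSeq's TAIR10.1 genome, each 5′ to 3′ on the strand of its gene. Capitals mark matches to any of 3 motifs searched on both strands: TGTCTC (auxin response element), CACGTG (G-box) and TTGAC (W-box core).
RGF2: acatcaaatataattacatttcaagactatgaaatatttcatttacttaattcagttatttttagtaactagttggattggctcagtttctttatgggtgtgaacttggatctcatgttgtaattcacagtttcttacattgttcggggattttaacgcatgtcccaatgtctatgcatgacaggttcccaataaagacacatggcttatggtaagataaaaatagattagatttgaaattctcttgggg
RGF3: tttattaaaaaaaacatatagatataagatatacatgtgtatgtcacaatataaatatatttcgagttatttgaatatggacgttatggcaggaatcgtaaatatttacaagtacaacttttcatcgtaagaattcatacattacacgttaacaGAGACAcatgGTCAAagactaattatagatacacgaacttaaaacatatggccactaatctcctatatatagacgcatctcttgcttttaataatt
The RGF3 window held 1 TGTCTC and 1 TTGAC, both read on the opposite strand, and the RGF2 window held no match to the 3 motifs. Of the 27444 windows of that length before annotated genes, 10.9% held TGTCTC, 6.49% CACGTG and 44.9% TTGAC. Among the windows of the other 8 loci, those before RGF1, AT5G48940 and RITF1 also held 1 TGTCTC each. Those before RGF1, AT4G26540, AT5G48940, AT1G34110 and TPST also held TTGAC. No window of the 10 held CACGTG. A match describes letters only.

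The rest of the peptide family was called about as often as the table as a whole. Of 8 further RGF genes, 6 passed the minimum mean of 1 TPM; of these 2 (33.3%) were higher in sos2-2, 2 (33.3%) were lower and 2 did not pass the test, beside 31.3% higher and 34.1% lower over all loci. They had a median log2 fold change of -0.34 beside -0.05 over all tested loci. GLV9 (AT5G15725) was measured at 0.339, 0.324 and 0.305 TPM in sos2-2, against 7.33, 9.97 and 6.04 TPM in WT, so that the groups were far apart (log2 fold change -2.71, SE 0.20, limma adjusted p = 3.48e-05). GLV9 reached the minimum mean only through its WT samples. RGF5 (AT5G51451) was measured at 129, 21.0 and 34.2 TPM in sos2-2, against 2.03, 3.18 and 3.59 TPM in WT (log2 fold change 3.59, SE 0.59, limma adjusted p = 0.00139). All sos2-2 samples of RGF5 were high, and the first stood well above the other two; without it the log2 fold change was 2.85.

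RGF4 and RGF7, chosen for mention after their values were seen, were the other 2 that passed. RGF4 averaged 7.90 ± 1.69 TPM in sos2-2 and 16.1 ± 1.3 TPM in WT (log2 fold change -0.96, limma adjusted p = 0.00184). RGF7 averaged 60.8 ± 19.7 TPM in sos2-2 and 30.05 ± 4.58 TPM in WT (log2 fold change 0.95, limma adjusted p = 0.0114). RGF8 (10.3 TPM in sos2-2, 11.2 TPM in WT) and GLV8 (3.28 TPM in sos2-2, 4.48 TPM in WT) did not pass, RGF6 was at or under 0.271 TPM in every sample, and RGF9 was listed at 0 in all 6.

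Summed over the 11 peptide genes, the level was 189, 134 and 129.8 TPM in the sos2-2 samples, against 113, 132.3 and 132 TPM in the WT samples. The groups overlapped, and sos2-2 replicate 1, which had the highest RGF5 level, had the highest sum. Within the sum, RGF3 held 1.53% ± 0.66 in sos2-2 and 27.4% ± 1.3 in WT, and RGF2 held 0.593% ± 0.423 in sos2-2 (0.358% without replicate 2) and 12.5% ± 0.4 in WT. RGF5 held 68.1%, 15.7% and 26.4% in the sos2-2 samples (36.7% ± 27.7, or 21.05% without replicate 1) and 2.30% ± 0.47 in WT. RGF7 held 43.0% ± 19.6 in sos2-2 and 23.8% ± 1.8 in WT.

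**Figure D3:**
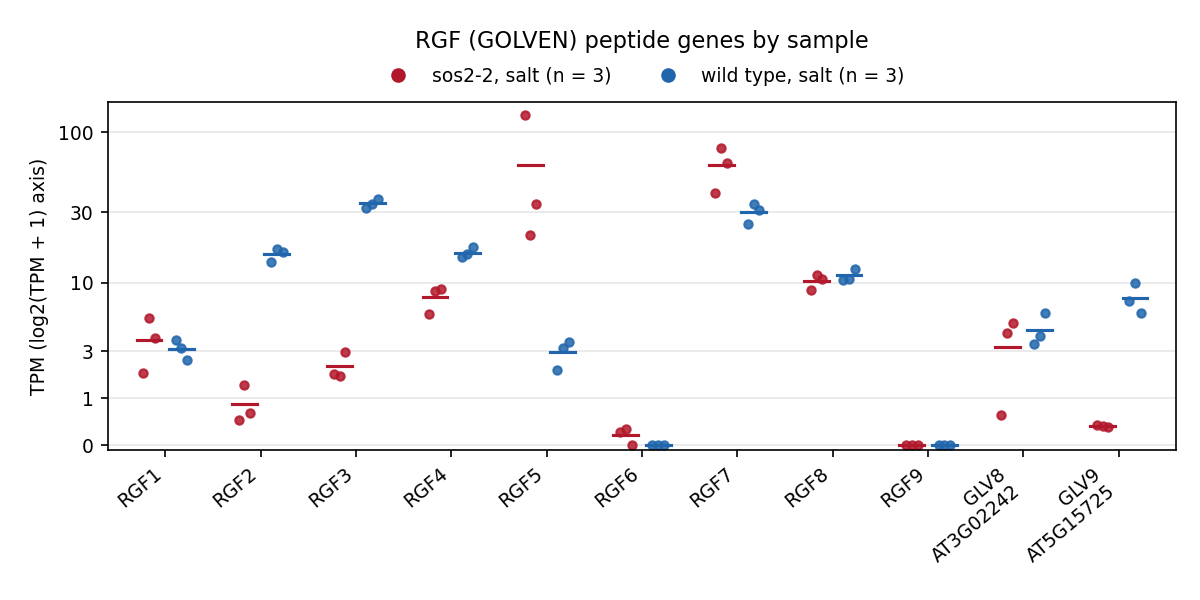
TPM of the 11 RGF (GOLVEN) peptide genes in each sample, on a log2(TPM + 1) axis, with sos2-2 in red left of WT in blue; bars are means of 3. RGF2, RGF3, RGF4 and GLV9 sit lower in sos2-2, RGF5 and RGF7 sit higher, and RGF9 is at 0 in all samples.

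Among the receptors, AT3G24240 (chr3:8780238-8784453, plus strand) had the largest decrease. It was measured at 11.9, 21.4 and 16.8 TPM in the sos2-2 samples, against 42.0, 36.0 and 39.5 TPM in the WT samples. The sos2-2 samples varied among themselves yet all lay under the lowest WT sample. The mean was 16.7 ± 4.7 TPM in sos2-2 and 39.2 ± 3.0 TPM in WT, 2.35-fold lower in sos2-2 (log2 fold change -1.22, SE 0.20, limma adjusted p = 0.00128).

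AT5G48940 (chr5:19839663-19843859, plus strand) was measured at 10.4, 11.5 and 11.4 TPM in the sos2-2 samples, against 20.0, 19.4 and 19.2 TPM in the WT samples. Both groups were tight and well apart. The mean was 11.1 ± 0.6 TPM in sos2-2 and 19.5 ± 0.4 TPM in WT (log2 fold change -0.76, SE 0.11, limma adjusted p = 0.000606). AT1G34110 (chr1:12417012-12421792, minus strand), the least abundant receptor, was measured at 4.06, 5.50 and 5.66 TPM in the sos2-2 samples, against 8.98, 7.70 and 8.58 TPM in the WT samples. Its groups did not overlap either. The mean was 5.07 ± 0.89 TPM in sos2-2 and 8.42 ± 0.65 TPM in WT (log2 fold change -0.64, SE 0.16, limma adjusted p = 0.00864), but its first isoform tested alone did not pass (log2 fold change -0.54, adjusted p = 0.0606).

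In the opposite direction, AT5G56040 (chr5:22694823-22698645, plus strand) was measured at 53.6, 60.3 and 58.7 TPM in the sos2-2 samples, against 36.6, 30.9 and 34.7 TPM in the WT samples. All sos2-2 samples were high. The mean was 57.5 ± 3.5 TPM in sos2-2 and 34.1 ± 2.9 TPM in WT, 1.69 times the WT level (log2 fold change 0.74, SE 0.11, limma adjusted p = 0.000937). The spliced second isoform carried at least 93.8% of the locus in every sample and was itself higher in sos2-2 (log2 fold change 0.77, limma adjusted p = 0.00142), while the first averaged 1.77 ± 1.23 TPM in sos2-2 and 1.72 ± 0.64 TPM in WT.

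AT4G26540 (chr4:13394447-13398307, minus strand) was measured at 27.3, 41.7 and 41.0 TPM in the sos2-2 samples, against 23.9, 23.4 and 25.7 TPM in the WT samples. The first sos2-2 sample lay just above the WT samples and the other two well above. The mean was 36.7 ± 8.1 TPM in sos2-2 and 24.3 ± 1.2 TPM in WT (log2 fold change 0.55, SE 0.17, limma adjusted p = 0.0245). This call was lost when any sample other than sos2-2 replicate 1 was left out, at adjusted p-values of 0.0535 to 0.0899, and without sos2-2 replicate 1 the adjusted p was 0.000812.

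Coding sequences of the receptors were compared in pairs. The coding sequences of AT4G26540 and AT5G56040, both higher in sos2-2, were 78.8% identical, the closest of the 10 receptor pairs. Those of AT5G48940 and AT3G24240, both lower, were next with 65.7%, and the remaining pairs had 58.0% to 62.5%. AT4G26540 and AT5G56040 shared 21 stretches of 31 bases, 0.56% and 0.55% of those in each locus, so reads from those stretches could be assigned to either.

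The summed level of the 5 receptors was 107, 140 and 134 TPM in the sos2-2 samples, against 131.5, 117 and 127.7 TPM in the WT samples, and the groups overlapped. The share held by each of the 5 did not overlap between the genotypes, and shares were not tested. The TPM of each receptor did not overlap either, as at 72.1% of all tested loci. Shares of a sum depend on each other and on these levels, so they are description only. AT5G56040 held 45.6% ± 3.8 of the receptor sum in sos2-2 and 27.1% ± 0.75 in WT, and AT4G26540 held 28.6% ± 2.8 in sos2-2 and 19.4% ± 1.1 in WT. AT3G24240 held 12.95% ± 2.098 in sos2-2 and 31.2% ± 0.68 in WT. The sum of RGF1, RGF2 and RGF3 over the sum of the 5 receptors averaged 0.0524 in sos2-2 and 0.426 in WT, while the sum of all 11 peptide genes over the receptors was 1.76, 0.954 and 0.972 in sos2-2 and 0.861, 1.13 and 1.03 in WT.

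**Figure D4:**
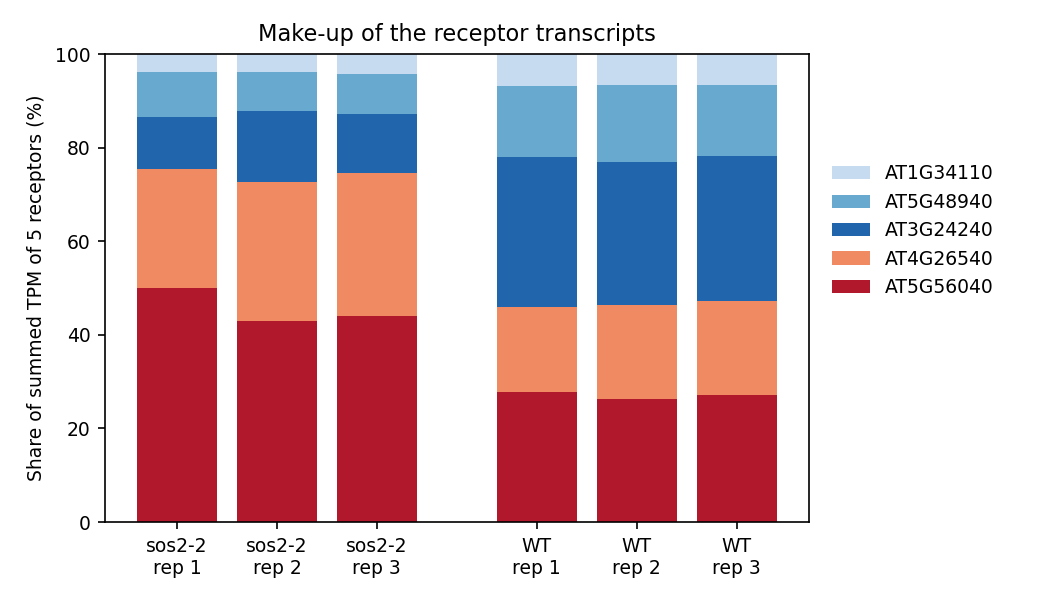
Share of the summed TPM of the 5 receptors held by each, in percent, with a bar for each sos2-2 sample on the left and each WT sample on the right. Colours group the receptors by the direction of their own difference: the 2 in red tones, AT5G56040 and AT4G26540, take a larger share in every sos2-2 sample than in any WT sample, and the 3 in blue tones a smaller one.

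RITF1 (AT2G12646, chr2:5166984-5169303, minus strand), which encodes the zinc-binding PLATZ protein placed downstream of the receptors, was the most abundant of the 10 loci in WT. It was measured at 23.3, 32.5 and 23.3 TPM in the sos2-2 samples, against 54.1, 49.9 and 52.1 TPM in the WT samples. Every sos2-2 sample was lower than every WT sample. The mean was 26.4 ± 5.3 TPM in sos2-2 and 52.0 ± 2.1 TPM in WT, 1.97-fold lower in sos2-2 (log2 fold change -0.97, SE 0.15, limma adjusted p = 0.000911).

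Of its 3 isoforms, 2 passed the test. The first was measured at 16.6, 21.6 and 13.9 TPM in sos2-2, against 41.6, 40.2 and 39.4 TPM in WT (log2 fold change -1.19, limma adjusted p = 0.00106). The second was measured at 4.83, 1.79 and 2.18 TPM in sos2-2, against 6.14, 6.17 and 7.60 TPM in WT (log2 fold change -1.03, limma adjusted p = 0.0266). The third was measured at 1.89, 9.03 and 7.23 TPM in sos2-2, against 6.43, 3.53 and 5.10 TPM in WT, and its groups overlapped (log2 fold change 0.07, SE 0.47, limma adjusted p = 0.912). The difference between isoforms was not tested.

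The other genes of the PLATZ family mostly went the other way. Of 11 further loci described as PLATZ in the annotation, 9 were tested, 7 were higher in sos2-2, 0 were lower and 2 did not pass, beside 31.3% and 34.1% of all tested loci higher and lower. Their median log2 fold change was 1.13. AT5G46710 was measured at 450.6, 327 and 343 TPM in sos2-2, against 12.5, 12.1 and 12.1 TPM in WT, a 30.5-fold difference of means with all sos2-2 samples high (log2 fold change 4.81, SE 0.14, limma adjusted p = 2.62e-06). AT4G17900 was measured at 297, 233 and 285 TPM in sos2-2, against 60.2, 70.7 and 66.7 TPM in WT (log2 fold change 2.02, SE 0.14, limma adjusted p = 2.6e-05).

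**Figure D5:**
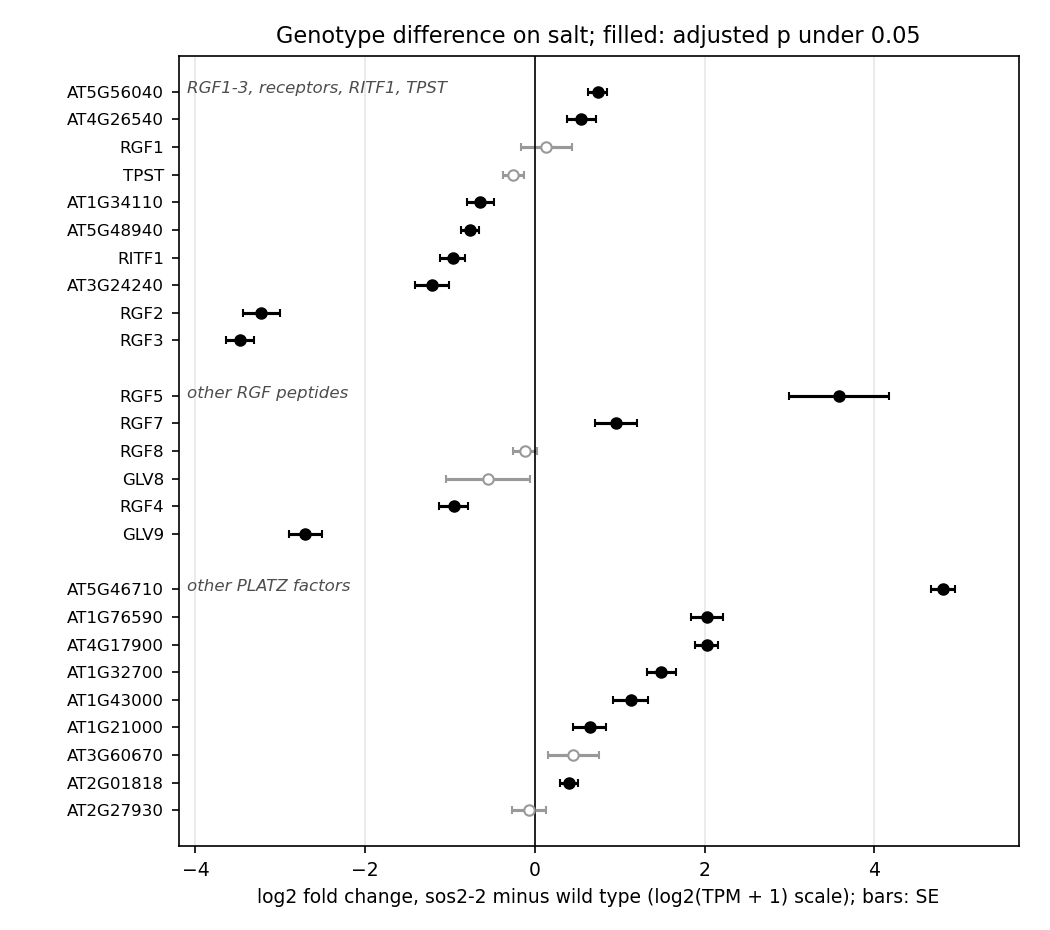
Log2 fold changes on the log2(TPM + 1) scale, sos2-2 minus WT, with SE bars, for the 10 loci, the 6 other RGF genes tested and the 9 other PLATZ genes tested; filled points have an adjusted p under 0.05 in limma. RITF1 at -0.97 lies left of 0 while 7 of the other PLATZ genes are filled and right of 0, up to 4.81.

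TPST (AT1G08030, chr1:2489409-2493327, minus strand), the tyrosylprotein sulfotransferase that acts on RGF precursors, was measured at 13.5, 11.9 and 12.0 TPM in the sos2-2 samples, against 15.3, 13.5 and 16.5 TPM in the WT samples. The lowest WT sample lay only just above the highest sos2-2 sample. The mean was 12.5 ± 0.9 TPM in sos2-2 and 15.1 ± 1.5 TPM in WT (log2 fold change -0.26, SE 0.12, limma adjusted p = 0.106), which did not pass the test. Neither of its isoforms passed. Of 2 subtilases listed for precursor cleavage, SBT6.2 (also TPP2) was lower, at 49.4 ± 8.8 TPM in sos2-2 and 72.6 ± 3.0 TPM in WT (log2 fold change -0.56, limma adjusted p = 0.0113). SBT6.1 (also S1P) averaged 6.94 ± 2.26 TPM in sos2-2 and 9.39 ± 1.06 TPM in WT (limma adjusted p = 0.128).

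By mean level in sos2-2 the 10 loci ran AT5G56040, AT4G26540, RITF1, AT3G24240, TPST, AT5G48940, AT1G34110, RGF1, RGF3 and RGF2. In WT the order was RITF1, AT3G24240, RGF3, AT5G56040, AT4G26540, AT5G48940, RGF2, TPST, AT1G34110 and RGF1. Neighbours whose samples overlapped in sos2-2 were AT4G26540 with RITF1, AT3G24240 with TPST, AT1G34110 with RGF1 and RGF1 with RGF3. In WT they were AT3G24240 with RGF3, RGF3 with AT5G56040, and RGF2 with TPST. RGF3 thus stood level with AT3G24240 and AT5G56040 in WT but next to last in sos2-2.

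Of the genes listed for relay of the signal 45.5% were called, beside 65.4% of all tested loci. Of 11 tested, 4 were higher (BAK1, BKK1, MKK4 and MPK3) and 1 was lower (SERK2). The 6 that did not pass were SERK1, UBP12, UBP13, YDA, MKK5 and MPK6. The higher share, 36.4%, was near the 31.3% over all loci. The list had a median log2 fold change of 0.17. All but BAK1 and MPK3 are named after their values were seen. BAK1, a SERK co-receptor of many receptor kinases, was measured at 129.8, 105 and 122 TPM in sos2-2, against 65.6, 62.1 and 63.6 TPM in WT (log2 fold change 0.88, SE 0.12, limma adjusted p = 0.000478). MPK3, a MAP kinase at the end of the cascade, was measured at 135, 100.6 and 138 TPM in sos2-2, against 59.2, 69.3 and 60.8 TPM in WT (log2 fold change 0.96, SE 0.15, limma adjusted p = 0.0011). In BAK1 and MPK3 every sos2-2 sample was higher than every WT sample. MPK6, the other MAP kinase listed, averaged 70.1 TPM in sos2-2 and 72.6 TPM in WT (log2 fold change -0.05, limma adjusted p = 0.682).

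Of 5 genes listed as outputs, 1 was higher, 1 was lower and 3 did not pass, so that 2 of 5 were called, beside 65.4% of all tested loci. PLT1, an AP2-type regulator of the stem cell niche, was measured at 5.06, 6.49 and 6.29 TPM in sos2-2, against 7.87, 4.25 and 6.03 TPM in WT, and the groups overlapped (log2 fold change 0.01, SE 0.21, limma adjusted p = 0.983). PLT2, its close relative, averaged 7.76 ± 1.64 TPM in sos2-2 and 6.199 ± 1.221 TPM in WT (log2 fold change 0.28, SE 0.20, limma adjusted p = 0.241). PLT3, listed as AIL6 in the annotation, was measured at 102.6, 105 and 120.2 TPM in sos2-2, against 20.2, 14.9 and 18.2 TPM in WT, 6.15 times the WT mean (log2 fold change 2.56, SE 0.14, limma adjusted p = 1.27e-05). All sos2-2 samples of PLT3 were far above all WT samples. BBM, another PLETHORA gene, averaged 1.80 ± 0.38 TPM in sos2-2 and 5.00 ± 0.78 TPM in WT (log2 fold change -1.10, SE 0.18, limma adjusted p = 0.0012).

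The loci whose log2(TPM + 1) pattern over the 6 samples was most like that of RGF3 were TSB2, a tryptophan synthase beta subunit (Pearson r = 0.9996), AT3G61010 (0.9988) and AT2G45990 (0.9986). TSB2 averaged 5.04 ± 0.46 TPM in sos2-2 and 17.1 ± 0.4 TPM in WT. Most like RITF1 were AT4G25740, an S10 domain protein (0.9998), OEP16-1 (0.9994) and AT5G41685, a Tom7 subunit (0.9993), and AT4G25740 averaged 126 ± 28 TPM in sos2-2 and 276.5 ± 16.7 TPM in WT. Such likeness was common, since of 15621 loci with a mean of at least 5 TPM, 701 reached r of 0.98 with RGF3 and 985 with RITF1. The 6 points fall into the 2 genotypes, so these values describe mostly the difference between them.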

How the data were processed

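Root tip RNA-seq of 3 sos2-2 and 3 WT samples on salt was analysed from the authors' table. Its values are TPM per transcript as deposited by the authors, a unit inferred from column sums of 1000000. Per the submitters' processing notes, kallisto 0.46.2, sleuth 0.30.0 and TAIR10 were named, without role or order; annotation release, filters and strand setting were not given in the sources used here. Depth is unknown and limits precision to what the replicates show. As TPM is scaled to a fixed total, abundant transcripts shift the rest.

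Isoforms were summed per locus. Loci averaging 1 TPM or more across samples were tested with limma 3.58.1 (R 4.3.3; trend, robust) on log2(TPM + 1), genotype only, with Benjamini-Hochberg adjustment over all tested loci; transcripts were tested likewise. The code was tested on simulated data. Positions, names and sequences are RefSeq's TAIR10.1, which had entries for 27445 of 27655 loci (99.2%). No column of another sample was present (0). Motifs, identities between sequences and shared stretches of 31 bases were computed in Python 3.11.15.

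The 10 loci and the gene lists were chosen with earlier results of these data known. Named genes were the 10 loci, the 2 called loci with the smallest adjusted p of each list, PLT1 to PLT3, and the 3 loci most like RGF3 and RITF1; RGF4 and RGF7, and values given for loci that did not pass, were added after values were seen. Alternatives covered the pseudocount, the filter, scaling, the moderation of variances, single transcripts, the replicate block and leaving out each sample.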

Additional observations from a re-analysis of the deposited data

How the results depend on the processing

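Of 146 recomputed fold changes of the 10 loci, 139 kept their direction and their side of the threshold. Of 56 recomputed counts of those loci and of all tested loci, 51 stayed within 1.5 times the reported count and 23 were unchanged; over all loci the higher count ran from 5286 to 6349 and the lower from 5372 to 6924. RGF1, not called in any of its alternatives, ran from -0.13 to 0.45 when 1 sample was left out, and has no value with a minimum mean of 5 TPM. AT4G26540 ran from 0.45 to 0.74 when 1 sample was left out, losing its call in 5 of 6 cases, so that the count of higher loci among the 10 was 1 to 2. AT1G34110 gave -0.54 (adjusted p = 0.0606) for its first isoform. PLT1 changed sign with a pseudocount of 5 TPM (-0.0025) and ran from -0.19 to 0.19 when 1 sample was left out. The cause of these changes was not tested. RGF2 ran from -4.22 to -1.83 and RGF3 from -3.93 to -2.45, in both cases with the pseudocount as the widest choice, and both were called in every alternative. GLV9 likewise ran from -4.19 to -1.25. Of 292 fold changes of other named genes, 288 kept direction and side of the threshold. Of 336 counts for the lists, 302 were unchanged and 328 stayed within 1.5 times.

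Replicate numbers are shared by the genotypes. Deviations of same-numbered samples from their group means correlated at 0.177, 0.0505 and 0.0575. Replicates 1 and 2 of sos2-2 correlated best with their own number, and replicate 3 with WT replicate 2 (0.182). From 3 samples per genotype, these values cannot tell whether same-numbered samples were paired. With a replicate block 6011 loci were higher and 6536 lower, against 6115 and 6665 without it, and no call among the 10 loci changed (AT4G26540 adjusted p = 0.0232).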

Other observations

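Other peptides that TPST sulfates, and their receptors, were listed beside the RGF genes. Of 13 tested, 5 were higher in sos2-2 (PSK3, PSK4, PSKR1, PSY1R and the locus AT2G16385), 3 were lower (PSK5, SGN3 and the locus AT4G34600) and 5 did not pass. Over all tested loci 31.3% were higher and 34.1% lower. Apart from PSK3 and PSY1R, these are named after their values were seen. The call of PSK4 was marginal (limma adjusted p = 0.049) and its groups overlapped, at 86.6 to 150.6 TPM in sos2-2 and 59.3 to 104 TPM in WT. The count of higher genes was 4 under 8 of 14 alternatives and was 6 under 1. The 13 had a median log2 fold change of 0.16 beside -0.05 over all tested loci. PSK3, a precursor of phytosulfokine, was measured at 240, 146 and 183 TPM in sos2-2, against 13.5, 18.2 and 18.4 TPM in WT (log2 fold change 3.41, SE 0.21, limma adjusted p = 1.97e-05). PSY1R, a receptor kinase for a sulfated peptide, was measured at 75.9, 63.2 and 77.9 TPM in sos2-2, against 15.5, 13.7 and 13.5 TPM in WT (log2 fold change 2.26, SE 0.125, limma adjusted p = 1.32e-05). In both genes all sos2-2 samples were higher than all WT samples. Members of the phytosulfokine family also went in opposite directions. PSK5 averaged 8.24 ± 3.63 TPM in sos2-2 and 23.6 ± 3.2 TPM in WT (log2 fold change -1.48, SE 0.26, limma adjusted p = 0.00189). SGN3, the receptor kinase that acts in sealing the Casparian strip, averaged 12.2 ± 4.7 TPM in sos2-2 and 25.3 ± 2.8 TPM in WT (log2 fold change -1.06, SE 0.26, limma adjusted p = 0.00891). The endodermis markers that moved beside SGN3 are given with the marker genes, and their part in its difference was not tested.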
